A study of Rattus norvegicus with 18 samples.

Results

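MicroRNAs (miRNAs) that are known from blood and immune cells were followed in small RNA libraries of whole dorsal root ganglia (DRG), the ganglia beside the spinal cord that hold the cell bodies of sensory neurons. They were chosen by name, as every listed arm of miR-451, miR-144, miR-486, miR-142, miR-223, miR-150 and miR-155, and the 10 of highest summed count over 18 libraries were kept, of 753 miRNAs listed. The name rule matched 12 entries, and no miR-486 entry was among them. The 2 entries just outside were miR-155-3p, with 53 counts in all, and miR-451-3p, with 22 counts, below the 926 counts of the last one kept, miR-144-5p. All 10 passed the detection filter of more than 10 counts in at least 6 libraries, which 373 miRNAs passed, and the 2 outside it did not.

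The ganglia came from cervical levels 6 to 8 of adult lister hooded rats. Naive rats (n = 6) had no surgery and no vector. In the bPYX+GFP and bPYX+NT3 rats (n = 6 each) the corticospinal tracts of both sides had been transected at the pyramids. On the next day the forelimb flexors of 1 side received an AAV1 vector in which a CMV promoter drives green fluorescent protein or human neurotrophin-3. Ganglia of the treated side were taken 10 weeks after the injury and pooled within each rat, never between rats. No group had the injury without a vector or a vector without the injury, so a difference from naive rats cannot be divided between them.

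A miRNA guides an Argonaute protein to messenger RNAs that pair with its seed, bases 2 to 8, and lowers their translation and stability. Of the miRNAs followed here, miR-451 and miR-144 are made from 1 transcript of the red cell lineage, where they are among the most abundant miRNAs of the mature red cell. miR-142 is made throughout the blood lineages and is used as a marker of leukocytes. miR-223 is known from neutrophils and other myeloid cells, miR-150 from mature lymphocytes, and miR-155 from activated lymphocytes and macrophages. A DRG holds neurons, satellite glia, Schwann cells, vessels and resident macrophages, and these miRNAs can come from resident cells or from blood left in the vessels. The study's methods describe perfusion of rats with buffer before dissection in the section on histology, and do not say whether the ganglia taken for RNA came from perfused rats. In bulk tissue, fewer cells of a type and less RNA per cell cannot be told apart.

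The mature sequences of 8 of the 10 were found in the RefSeq table for rat assembly GRCr8. They are shown so that members that varied together between rats, as described further on, can be compared in sequence. The seed is in capitals. The sequences of the red cell members, miR-451-5p and the 2 arms of miR-144, are as follows.
miR-451-5p: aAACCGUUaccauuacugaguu
miR-144-3p: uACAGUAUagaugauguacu
miR-144-5p: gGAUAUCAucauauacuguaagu

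The sequences of 5 leukocyte members are written in the same way, and miR-150-5p and miR-150-3p are named without sequence.
miR-142-5p: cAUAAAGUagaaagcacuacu
miR-142-3p: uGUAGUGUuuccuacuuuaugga
miR-223-3p: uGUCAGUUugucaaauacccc
miR-223-5p: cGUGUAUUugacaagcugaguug
miR-155-5p: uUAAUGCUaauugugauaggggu

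These were 8 different seeds, and none of them was shared with any other mature miRNA of the table. Each of the 8 sequences had 1 locus there. In GRCr8, which is not the build Rnor_5.0 of the counts, the hairpins of Mir144 (chr10:63459397-63459479) and Mir451a (chr10:63459569-63459640) lay on the plus strand with 89 bases between them, and no other gene of the annotation overlapped them. Mir142 (chr10:73055104-73055190) lay within the span of the protein-coding gene Tspoap1. Mir155 (chr11:37261114-37261178) overlapped the long noncoding RNA gene Mir155hg, and Mir223 (chrX:65151383-65151492) overlapped the long noncoding RNA gene LOC120099372.

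The red cell pair is shown as hairpins because they are made in different ways. Here the capitals mark the mature strand, miR-451-5p in the first hairpin and miR-144-3p in the second.
Mir451a: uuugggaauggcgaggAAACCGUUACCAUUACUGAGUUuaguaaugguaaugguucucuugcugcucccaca
Mir144: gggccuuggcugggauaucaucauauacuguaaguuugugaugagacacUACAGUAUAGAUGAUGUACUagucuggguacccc

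In the structure predicted by RNAfold, miR-451-5p occupied bases 17 to 38 of its hairpin of 72 bases, and 4 of its 22 bases lay in the terminal loop. The other members with a sequence had 0 bases in the loop of theirs. It is known that miR-451 is cut by Argonaute 2 rather than by Dicer and that no 3p strand of the usual kind is released. Counts of miR-451-3p were at most 3 in any library and 0 in 6 of the 18, where a count of 0 allows up to 0.602 to 0.692 CPM depending on the library (3 counts on the TMM-scaled total; counting error only). Here the 3p arm had 0.0642% of the pooled counts of both arms (exact binomial 95% interval 0.0402 to 0.0971%, counting error only).

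Libraries held 4.70 ± 0.663 M miRNA counts (SD, n = 18, range 3.88 to 6.92 M). Levels are given as counts per M of the library's miRNA counts after TMM scaling (CPM). The sensory neuron markers miR-182 (mean 25160 CPM) and miR-96-5p (4282 CPM) and the glial marker miR-204-5p (8451 CPM) were present, as were the endothelial marker miR-126a-3p (24446 CPM) and the smooth muscle marker miR-143-3p (49479 CPM). Other markers on the same neuronal list, miR-124-3p and miR-9a-5p, were at a mean of 0.43 and 0.034 CPM. The skeletal muscle marker miR-206-3p was at 114 CPM (41.5 to 297), and miR-1-3p and miR-133a-3p of that list were listed at 0 in every library. So were the neuronal miR-183-5p, the glial miR-338-3p and the endothelial miR-126a-5p, so a 0 in the table is not a sign that a miRNA was missing from the tissue.

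The 10 blood and immune cell miRNAs together took 0.190 ± 0.0553% of the miRNA counts (SD, n = 18), from 0.0978 to 0.301%. Their levels spanned about 2 orders of magnitude, and most of the sum was miR-150-5p and miR-451-5p. miR-150-5p ranked 63 and miR-451-5p ranked 102 by summed count among the 753 miRNAs, while miR-144-5p ranked 291. Mean levels over all rats were 1028 ± 360 CPM for miR-150-5p and 419 ± 209 CPM for miR-451-5p (SD, n = 18). miR-223-3p had 155 ± 40.6 CPM and miR-142-5p had 143 ± 60.9 CPM. miR-155-5p had 55.3 ± 23.3 CPM, miR-142-3p 32.8 ± 14.4 CPM and miR-223-5p 26.8 ± 7.45 CPM. The lowest were miR-150-3p with 15.9 ± 7.76 CPM, miR-144-3p with 13.2 ± 7.18 CPM and miR-144-5p with 11.2 ± 5.65 CPM.

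This order held within most libraries but not between every pair of neighbours. miR-451-5p exceeded miR-223-3p, and miR-142-5p exceeded miR-155-5p, in 18 of 18 libraries. miR-150-5p exceeded miR-451-5p in 17 libraries, miR-155-5p exceeded miR-142-3p in 17 and miR-223-5p exceeded miR-150-3p in 16. The neighbours miR-223-3p and miR-142-5p kept the order of their means in 14 libraries, and miR-150-3p and miR-144-3p in 13. miR-142-3p and miR-223-5p, like miR-144-3p and miR-144-5p, kept it in 11. Whether the levels within these pairs differ was not tested. Levels of different miRNAs also carry differences in how well each sequence is ligated and amplified, so the order describes these libraries rather than molecules per cell.

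**Figure D1:**
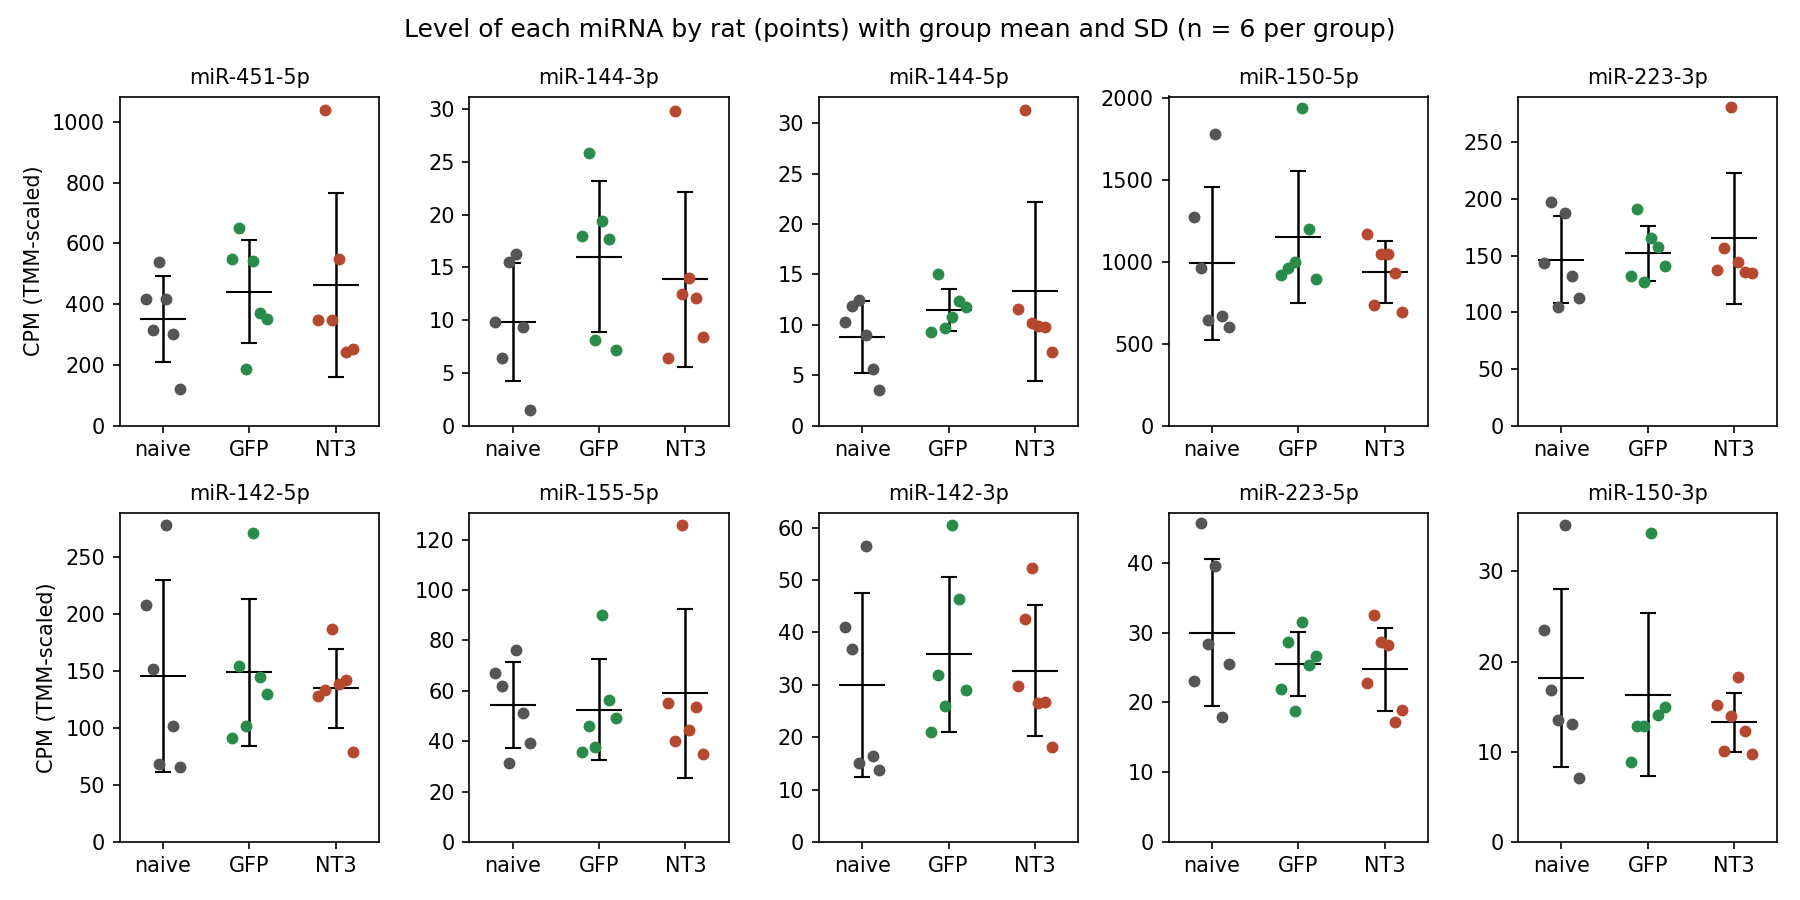
Level of each blood and immune cell miRNA in CPM (vertical axis, linear and starting at 0, scaled per panel) in naive, bPYX+GFP and bPYX+NT3 rats. Each point is 1 rat, and bars show the mean and SD (n = 6 per group). The 3 groups overlap in every panel, and single rats stand far above the rest of their group, such as 1 bPYX+NT3 rat at 1037 CPM of miR-451-5p.

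The first question was whether the levels in the injured, GFP-treated rats, or with NT3, differed from those of the other groups. In the main fit of each comparison, no difference between groups passed for any of the 10 miRNAs. Some alternatives gave 1 unadjusted call, as described in the section on processing. In bPYX+GFP against naive, 0 of 10 passed an unadjusted p under 0.05 by the edgeR quasi-likelihood test, beside 21.2% of all tested miRNAs, and 0 passed after Benjamini-Hochberg adjustment over all 373, beside 2.41%. In bPYX+NT3 against bPYX+GFP, 0 of 10 passed unadjusted, beside 8.58%, and 0 after adjustment, beside 0%. In bPYX+NT3 against naive, 0 of 10 passed unadjusted, beside 13.7%, and 0 after adjustment, beside 0%. The edgeR likelihood ratio test and DESeq2 also called 0 of 10 at an unadjusted p under 0.05 in each comparison. Of all 373 tested miRNAs, the likelihood ratio test called 61, 30 and 42 in the same order, and DESeq2 called 73, 33 and 56. For no member were the groups free of overlap, which was so for 4.02%, 0% and 1.34% of all tested miRNAs in the 3 comparisons.

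The red cell miRNAs had the largest positive fold changes against naive rats, and these were within the spread between rats. miR-451-5p had a lowest, median and highest level of 120, 366 and 538 CPM in naive rats, 188, 456 and 651 CPM in bPYX+GFP rats and 242, 348 and 1037 CPM in bPYX+NT3 rats. The group ranges overlapped in part, naive replicate 6 was the lowest of the 18 rats, and bPYX+NT3 replicate 2 was the highest, 8.66-fold above it. Group means were 352 ± 142, 441 ± 169 and 463 ± 302 CPM (SD, n = 6 each). The log2 fold change was 0.33 ± 0.31 (SE) in bPYX+GFP against naive (adjusted p = 0.612, edgeR), 0.39 ± 0.36 in bPYX+NT3 against naive (adjusted p = 0.687) and 0.08 ± 0.36 in bPYX+NT3 against bPYX+GFP (adjusted p = 0.950). With 1 rat left out the first ran from 0.15 (without naive replicate 6) to 0.49 (without naive replicate 3). The third turned to -0.35 without bPYX+NT3 replicate 2.

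miR-144-3p, from the same transcript, showed the widest range of the members. Its lowest, median and highest levels were 1.45, 9.60 and 16.3 CPM in naive rats, 7.14, 17.8 and 25.9 CPM in bPYX+GFP rats and 6.46, 12.3 and 29.8 CPM in bPYX+NT3 rats. Naive replicate 6, with 7 counts, was again the lowest and bPYX+NT3 replicate 2, with 121 counts, the highest, a 20.6-fold range. In bPYX+GFP rats miR-144-3p had the largest fold change of the members, a log2 fold change of 0.70 ± 0.40 (95% interval -0.16 to 1.56), and 4 of 6 rats were above the naive mean (adjusted p = 0.328, edgeR). It had the smallest unadjusted p of the 10 in that comparison, 0.104 by edgeR, and an interval that holds a doubling.

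Naive rats had 3.52, 9.67 and 12.5 CPM of miR-144-5p as lowest, median and highest, against 9.33, 11.3 and 15.0 CPM in bPYX+GFP rats and 7.34, 10.0 and 31.3 CPM in bPYX+NT3 rats. The groups overlapped, although 6 of 6 bPYX+GFP rats and 5 of 6 bPYX+NT3 rats were above the naive mean of 8.80 ± 3.55 CPM (SD, n = 6). The log2 fold change was 0.39 ± 0.24 in bPYX+GFP (95% interval -0.12 to 0.91, adjusted p = 0.364, edgeR) and 0.60 ± 0.36 in bPYX+NT3 (-0.16 to 1.35, adjusted p = 0.425). The first was 0.23 without naive replicate 6. The second rested in part on bPYX+NT3 replicate 2, without which it was 0.17. For miR-451-5p and miR-144-3p against naive, leaving out that rat gave 0.00 and 0.14 in place of 0.39 and 0.49.

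Summed over the 3 red cell members, naive rats had 370 ± 150 CPM (SD, n = 6, 125 to 566), bPYX+GFP rats 469 ± 176 CPM (205 to 691) and bPYX+NT3 rats 490 ± 318 CPM (264 to 1098). The ranges overlapped in part, and that of the bPYX+NT3 rats reached far above the others. Over the 7 leukocyte members the sums were 1415 ± 624 CPM (869 to 2455), 1584 ± 516 CPM (1228 to 2593) and 1369 ± 271 CPM (994 to 1740) in the same order. Naive replicate 6 had the lowest value of both sums.

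Among the leukocyte miRNAs, the arms of miR-142, the general marker of the blood lineages, had no fold change beyond their spread. miR-142-5p had lowest, median and highest levels of 66.0, 127 and 278 CPM in naive rats, 91.2, 138 and 271 CPM in bPYX+GFP rats and 79.3, 136 and 187 CPM in bPYX+NT3 rats. Naive rats alone covered the whole range seen in the other groups. The log2 fold change was 0.03 ± 0.34 in bPYX+GFP against naive (adjusted p = 0.983, edgeR), -0.11 ± 0.31 in bPYX+NT3 against naive (adjusted p = 0.901) and -0.12 ± 0.24 between the injured groups (adjusted p = 0.879). Its other arm, miR-142-3p, had 29.9 ± 17.5, 35.8 ± 14.8 and 32.7 ± 12.5 CPM (SD, n = 6 each), with log2 fold changes of 0.26 ± 0.35, 0.13 ± 0.35 and -0.11 ± 0.28 in the same order. The first of these had a 95% interval of -0.48 to 1.00 and ran from 0.046 (without bPYX+GFP replicate 4) to 0.54 (without naive replicate 4) with 1 rat left out. Naive replicate 6 had the least of both arms, and naive replicate 4 and bPYX+GFP replicate 4 had the most.

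The lymphocyte miRNA miR-150-5p had lowest, median and highest levels of 605, 817 and 1782 CPM in naive rats, 894, 980 and 1941 CPM in bPYX+GFP rats and 698, 991 and 1170 CPM in bPYX+NT3 rats. The medians of the injured groups were close to each other, and bPYX+GFP replicate 4 lay above every other rat. The log2 fold change was 0.22 ± 0.26 in bPYX+GFP against naive (adjusted p = 0.692, edgeR), with values from 0.0052 (without bPYX+GFP replicate 4) to 0.47 (without naive replicate 4) when 1 rat was left out, and -0.28 ± 0.18 in bPYX+NT3 against bPYX+GFP (95% interval -0.66 to 0.11, adjusted p = 0.668). The second had the smallest unadjusted p of the members between the injured groups, 0.149 by edgeR. It was -0.09 without bPYX+GFP replicate 4. Against naive the bPYX+NT3 value was -0.08 ± 0.24 (adjusted p = 0.914, edgeR).

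The passenger arm miR-150-3p had 18.2 ± 9.89 CPM in naive rats, 16.3 ± 9.04 CPM with GFP and 13.3 ± 3.26 CPM with NT3 (SD, n = 6 each). Naive replicate 4 and bPYX+GFP replicate 4 were the highest rats, at 35.1 and 34.3 CPM, and no bPYX+NT3 rat was above 18.3 CPM. Its log2 fold change in bPYX+NT3 against naive was -0.46 ± 0.30 (95% interval -1.09 to 0.18, adjusted p = 0.473, edgeR), the lowest of the members in that comparison. Without naive replicate 4 it was -0.15, and the lowest was then miR-223-5p with -0.18. Against naive, bPYX+GFP rats had -0.16 ± 0.35, and between the injured groups the value was -0.27 ± 0.27.

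miR-223, the myeloid miRNA, varied least. miR-223-3p had lowest, median and highest levels of 105, 138 and 197 CPM in naive rats, 126, 149 and 192 CPM in bPYX+GFP rats and 135, 141 and 282 CPM in bPYX+NT3 rats. Apart from bPYX+NT3 replicate 3, which held the 282 CPM, every rat lay between 105 and 197 CPM. The log2 fold change was 0.06 ± 0.16 in bPYX+GFP against naive (adjusted p = 0.912, edgeR), 0.18 ± 0.20 in bPYX+NT3 against naive (adjusted p = 0.732) and 0.13 ± 0.19 between the injured groups (adjusted p = 0.867). miR-223-5p had 30.02 ± 10.6, 25.5 ± 4.63 and 24.7 ± 6.01 CPM (SD, n = 6 each), with log2 fold changes of -0.24 ± 0.20 and -0.28 ± 0.22 in the injured groups against naive and -0.03 ± 0.18 between them. Without naive replicate 2, the highest naive rat, the first and second were -0.078 and -0.12.

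For miR-155-5p, the miRNA of activated immune cells, the lowest, median and highest levels were 31.2, 56.4 and 76.0 CPM in naive rats, 35.6, 47.7 and 90.2 CPM in bPYX+GFP rats and 34.9, 49.1 and 126 CPM in bPYX+NT3 rats. The medians of both injured groups were below that of naive rats, and the 126 CPM belonged to bPYX+NT3 replicate 3, as for miR-223-3p. Log2 fold changes were -0.05 ± 0.24 in bPYX+GFP against naive (adjusted p = 0.956, edgeR), 0.12 ± 0.29 in bPYX+NT3 against naive (adjusted p = 0.886) and 0.20 ± 0.30 between the injured groups (adjusted p = 0.878).

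**Figure D2:**
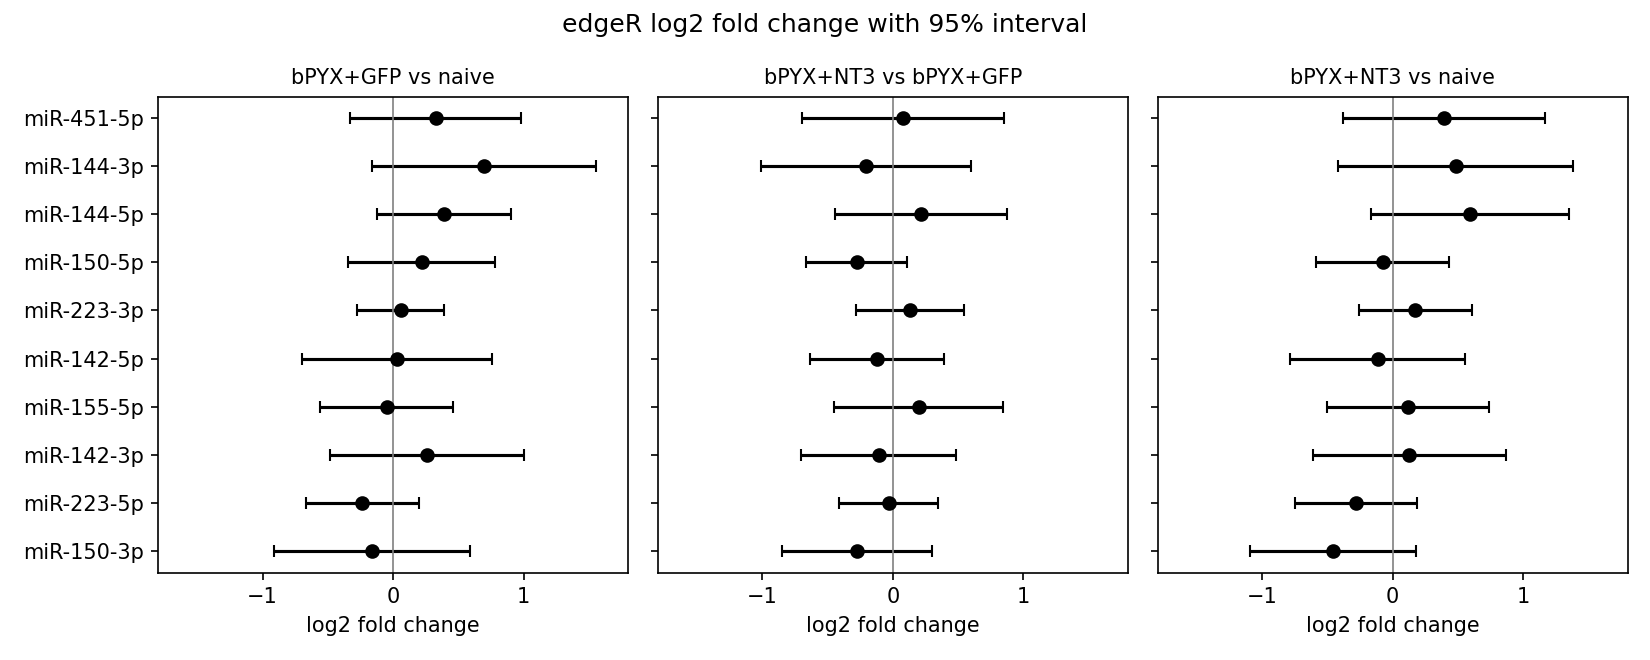
Log2 fold change of each miRNA (points) with its 95% interval (bars) by edgeR in the 3 comparisons of 6 against 6 rats. Every interval holds 0, from the 0.70 of miR-144-3p in bPYX+GFP against naive (-0.16 to 1.56) to the -0.46 of miR-150-3p in bPYX+NT3 against naive (-1.09 to 0.18).

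The intervals show what sizes of change these rats leave possible. In bPYX+GFP against naive, the 95% interval excluded both a doubling and a halving for 8 of the 10 miRNAs and held a doubling for 2. Between the injured groups it excluded both for 9 and held a halving for 1. In bPYX+NT3 against naive it excluded both for 6, held a doubling for the 3 red cell miRNAs and held a halving for miR-150-3p. The median log2 fold change of the members was 0.14, -0.07 and 0.12 in the order bPYX+GFP against naive, bPYX+NT3 against bPYX+GFP and bPYX+NT3 against naive, beside 0.00, -0.00 and -0.01 over all tested miRNAs. The number with a positive value was 7, 4 and 6 of 10. The comparisons share libraries, so these values are not independent of each other.

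Some miRNAs that are abundant in blood cells are also made in many other tissues, and a list of 10 of them was read beside the members. In the ganglia 9 of these were tested. In bPYX+GFP against naive, 2 of the 9 were higher at an unadjusted p under 0.05 by edgeR, and neither after adjustment. Over all tested miRNAs 21.2% passed unadjusted in that comparison, so the share in the list was near the background. The 2 were miR-25-3p, of the miR-106b cluster, with a log2 fold change of 0.13 ± 0.06 (adjusted p = 0.219, edgeR), and miR-146a-3p, an arm of a regulator of innate immune signalling, with 0.66 ± 0.30 (adjusted p = 0.232, edgeR). The main arm miR-146a-5p had 0.19 ± 0.11 (adjusted p = 0.328, edgeR). In the other comparisons 0 of 9 passed unadjusted, by edgeR. The median log2 fold change of the 9 was 0.06, 0.04 and 0.06 in the order given above.

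The markers of vessels were read in the same way. The endothelial miR-126a-3p had log2 fold changes of -0.06 ± 0.08, -0.03 ± 0.09 and -0.11 ± 0.10 in the same order, none of which passed. miR-143-3p, a marker of smooth muscle, had 0.01 ± 0.12, -0.00 ± 0.11 and -0.01 ± 0.14. Its cluster partner miR-145-5p had a log2 fold change of -0.50 ± 0.14 in bPYX+GFP against naive (adjusted p = 0.0742, edgeR) and had 0.40 ± 0.16 in bPYX+NT3 against bPYX+GFP (adjusted p = 0.442, edgeR), both passing unadjusted only. The other 2 vessel markers passed in no comparison, and the shares of all tested miRNAs that passed unadjusted were 21.2%, 8.58% and 13.7% in the same order.

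The blood and immune cell miRNAs varied widely between the rats of a group. The pooled SD of log2 CPM within groups had a median of 0.22 over the 373 tested miRNAs and of 0.59 over the 10 members. miR-144-3p, with an SD of 0.88, ranked 3 of 373, behind miR-741-3p with 2.33 and the muscle miRNA miR-206-3p with 0.89. miR-451-5p, with 0.73, ranked 7, and miR-142-3p, with 0.67, ranked 10. Then came miR-142-5p with 0.63 (rank 13), miR-150-3p with 0.61 (16), miR-144-5p with 0.57 (20), miR-155-5p with 0.54 (22) and miR-150-5p with 0.47 (33). Even the least variable members, miR-223-5p with 0.38 (58) and miR-223-3p with 0.35 (82), ranked above most tested miRNAs, and 6 of the 10 were among the 20 most variable. The SD of miR-144-3p rests in part on naive replicate 6, which had 7 counts and a log2 CPM minus group mean of -2.12.

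Low counts add to the SD, so members were read beside miRNAs of like level. Of the 137 tested miRNAs under 30 CPM the median SD was 0.33, and the lowest of the 4 members there was 0.38. For the 123 between 30 and 300 CPM the median was 0.19 and the lowest of 4 members 0.35. Above 300 CPM, where counting error is small, the median of 113 miRNAs was 0.17, beside 0.47 for miR-150-5p and 0.73 for miR-451-5p. These are descriptions with no test.

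**Figure D3:**
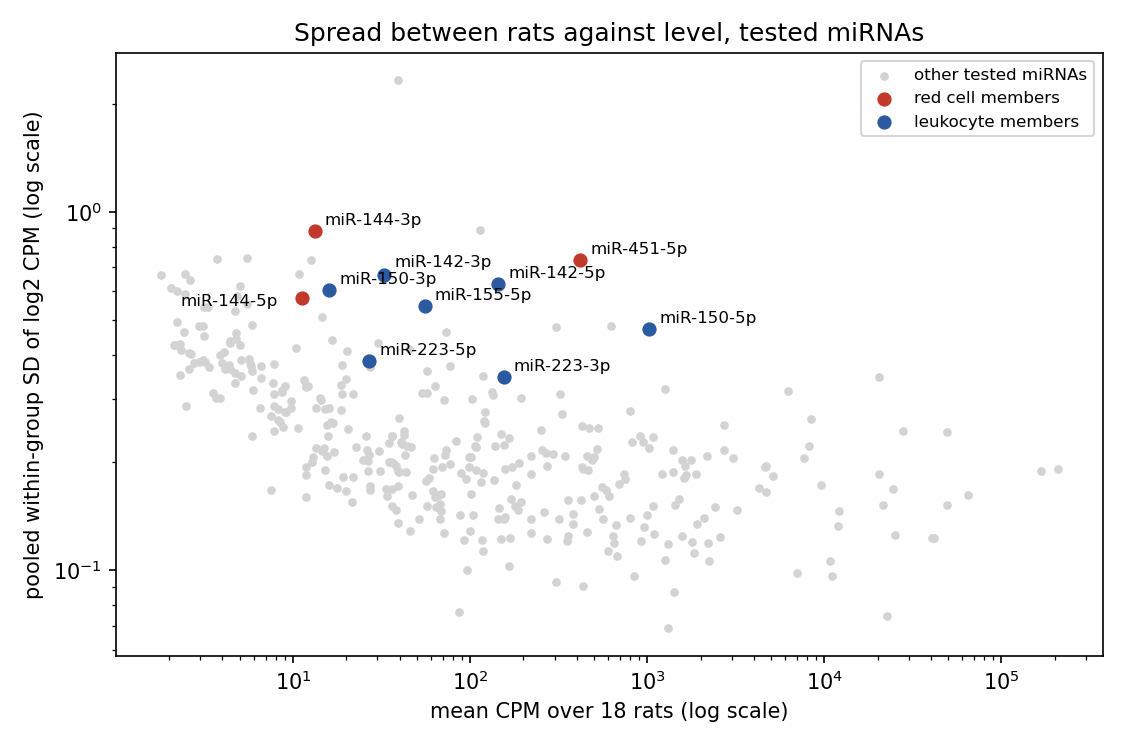
Pooled SD of log2 CPM between rats within groups (vertical, log scale) against mean CPM over 18 rats (horizontal, log scale) for the 373 tested miRNAs. Red points are the 3 red cell members, blue points the 7 leukocyte members and grey points all others. The members have SDs from 0.35 to 0.88 beside a median of 0.22 over all tested miRNAs. Both arms of miR-223 are the lowest of the members and still lie above the median of like level. miR-223-5p has 0.38 beside 0.33 for tested miRNAs under 30 CPM, and miR-223-3p 0.35 beside 0.19 at 30 to 300 CPM.

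The rats that stood high or low did so for several members at once, in some rats within the red cell or the leukocyte members only and in others, such as naive replicate 6, within both. After the group mean was removed from log2 CPM, miR-451-5p and miR-144-3p rose and fell together over the 18 rats (Pearson r = 0.861, p = 1e-05, the smallest p that 100000 permutations can give; Spearman rho = 0.843, permutation p = 4e-05). With the Benjamini-Hochberg method over 7 pairs the adjusted p was 2.33e-05 for r. Without naive replicate 6 and bPYX+NT3 replicate 2, the rats farthest from the median, r was 0.701. Within groups r was 0.963 (naive), 0.820 (bPYX+GFP) and 0.811 (bPYX+NT3).

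Among the leukocyte members miR-142-5p was read against its own other arm and against 1 miRNA of each other hairpin. With miR-142-3p it had r = 0.931 (permutation p = 1e-05, adjusted p = 2.33e-05) and rho = 0.920 (permutation p = 1e-05). With miR-150-5p it had r = 0.899 (permutation p = 1e-05, adjusted p = 2.33e-05) and rho = 0.847 (permutation p = 3e-05). Whether the 2 values of r differ was not tested.

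With miR-155-5p it had r = 0.833 (permutation p = 6e-05, adjusted p = 0.000105) and rho = 0.851 (permutation p = 4e-05). With miR-223-3p it had r = 0.702 (permutation p = 0.00109, adjusted p = 0.00153) and rho = 0.835 (permutation p = 5e-05). These relations of miR-142-5p held without naive replicates 6 and 4, the rats farthest from the median, with r of 0.900, 0.845, 0.845 and 0.637 in the order miR-142-3p, miR-150-5p, miR-155-5p and miR-223-3p. Within naive rats r was between 0.831 and 0.974, and within bPYX+GFP rats between 0.678 and 0.965. Within bPYX+NT3 rats it was 0.836 for miR-142-3p, 0.792 for miR-155-5p, 0.675 for miR-223-3p and 0.639 for miR-150-5p. The permutation p-values of all pairs are against no relation at all, with values shuffled over all 18 rats. Whether members varied together more than other miRNAs did was not tested. Outside the members, the extremes of rho with miR-142-5p were 0.835 (miR-147) and -0.804 (miR-543-3p).

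For the 2 pairs read between the sets, both with miR-451-5p, the relation was weak. miR-451-5p and miR-142-5p had r = 0.359 (permutation p = 0.143, adjusted p = 0.167) and rho = 0.259 (permutation p = 0.296), and r was 0.210 without naive replicate 6 and bPYX+NT3 replicate 2. miR-451-5p and miR-223-3p had r = 0.239 (permutation p = 0.339, adjusted p = 0.339) and rho = 0.298 (permutation p = 0.228), with r between 0.0716 and 0.692 within groups. Whether the relations within a set were stronger than those between sets was not tested. Over all pairs, the median rho was 0.812 for the 21 pairs of leukocyte members (0.387 to 0.920), 0.612 for the 3 pairs of red cell members (0.548 to 0.843) and 0.298 for the 21 pairs across the sets (-0.121 to 0.608). The sets were not cleanly apart for miR-144-5p. Its rho with leukocyte members ran from 0.199 (miR-155-5p) to 0.608 (miR-223-5p), beside 0.548 with its other arm miR-144-3p and 0.612 with miR-451-5p. All pairs come from the same 18 libraries, and 2 arms of a hairpin share a precursor.

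**Figure D4:**
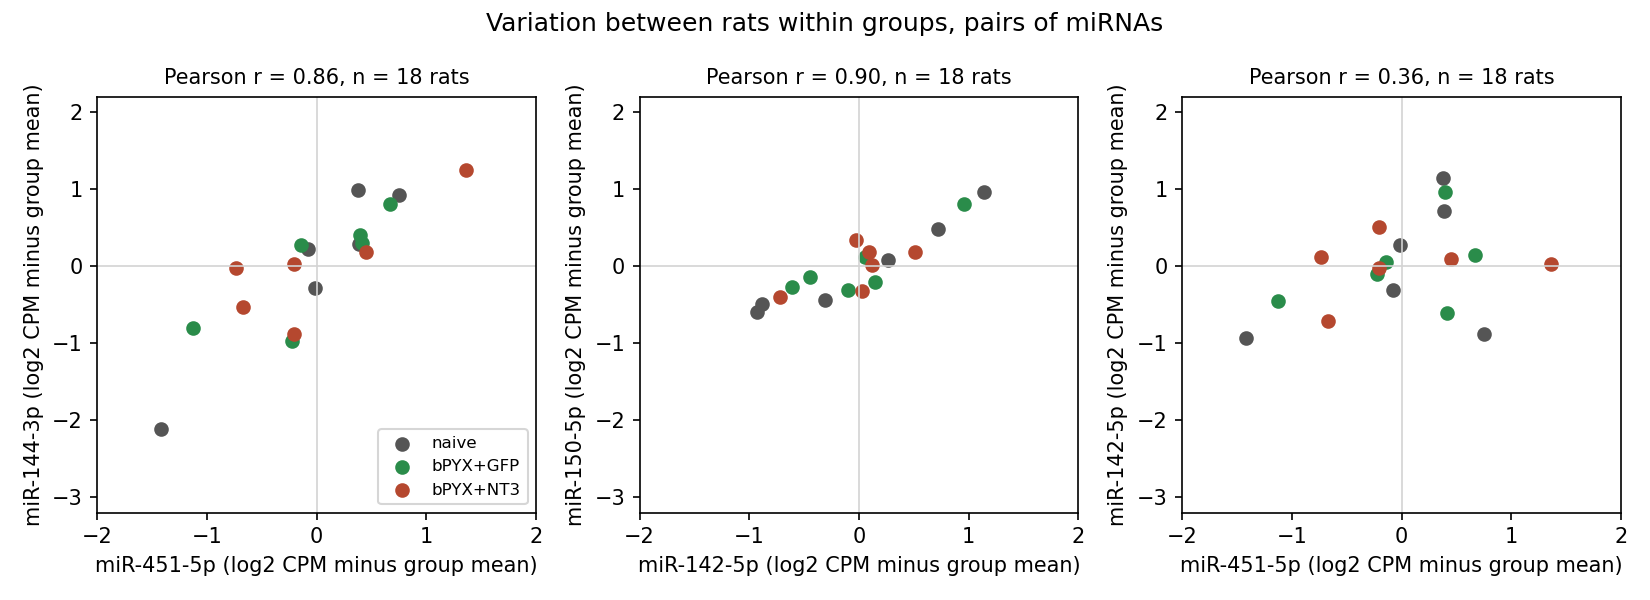
Each point is 1 rat, placed by its log2 CPM minus the group mean for 2 miRNAs, and colours mark the groups. The left panel shows miR-451-5p with miR-144-3p (r = 0.861), the middle one miR-142-5p with miR-150-5p (r = 0.899) and the right one miR-451-5p with miR-142-5p (r = 0.359), where the points form no line.

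Some rats are given here as examples, chosen after their values were seen. bPYX+NT3 replicate 2 was the highest of its group for all 3 red cell members, with 1037 CPM of miR-451-5p beside 548 CPM in the next rat, while its leukocyte sum of 1155 CPM was near the lower end. bPYX+GFP replicate 4 had the highest leukocyte sum of all, 2593 CPM, with a red cell sum of 571 CPM, inside its group's range. Naive replicate 4 had the next highest leukocyte sum, 2455 CPM, with a red cell sum of 441 CPM. bPYX+GFP replicate 3 had the lowest red cell sum of its group, 205 CPM, with a leukocyte sum of 1322 CPM. bPYX+NT3 replicate 3 stood out for miR-155-5p and miR-223-3p, with a red cell sum of 371 CPM. Naive replicate 6 was low in both sets, at 125 CPM and 869 CPM.

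**Figure D5:**
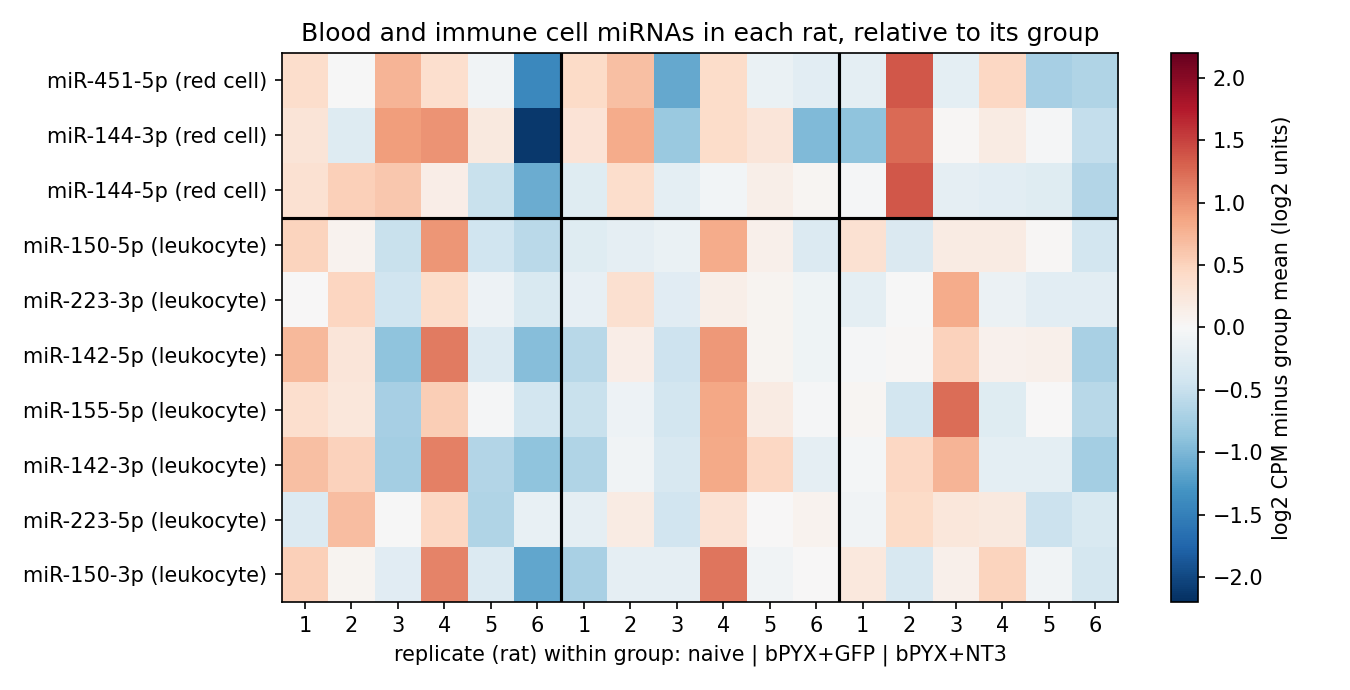
Log2 CPM minus the group mean (colour, red above and blue below, scale in log2 units) for the 10 miRNAs (rows, red cell members above the horizontal line) in the 18 rats (columns, by replicate number within naive, bPYX+GFP and bPYX+NT3, divided by vertical lines). Columns tend to have 1 colour within a set of rows, as for bPYX+NT3 replicate 2 in the red cell rows and bPYX+GFP replicate 4 in the leukocyte rows.

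The levels of other miRNAs over the same 18 rats, with group means removed, were compared by Spearman rho as a description of likeness. The miRNAs named are the extremes of 363 over 18 rats, and how large such extremes would be by chance was not tested. Nearest to miR-451-5p outside the members were miR-148a-5p (rho = 0.709), miR-193b-3p (0.699), miR-134-3p (0.678), miR-770-3p (0.624) and miR-483-5p (0.579), and at the other end was miR-496-3p (-0.816). Nearest to miR-150-5p were miR-92a-1-5p (0.734), miR-130b-5p (0.719), miR-200c-3p (0.682), miR-375-3p (0.666) and miR-147 (0.659), and at the other end was miR-543-3p (-0.763). For miR-142-5p, added after its values had been seen, the nearest were miR-147 (0.835), miR-15b-5p (0.746), miR-130b-5p (0.732), miR-375-3p (0.701) and miR-200c-3p (0.690), of which 4 are also among the 5 nearest to miR-150-5p, and miR-543-3p was again at the other end (-0.804). Of the 9 tested miRNAs that are abundant in blood cells but widely made, miR-92a-3p was the most like miR-142-5p (0.672), followed by miR-342-3p (0.536), an intronic miRNA known from lymphocytes. None of the 9 was as near to miR-451-5p, where the highest was miR-21-5p (0.395) and miR-16-5p and miR-25-3p, which are also found in red cells, had -0.298 and -0.472.

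Tissue markers and library measures were read beside the same members, and their part in the variation was not tested. miR-451-5p had a rho of 0.391 with the endothelial miR-126a-3p, 0.536 with the glial miR-204-5p and -0.606 with the muscle miRNA miR-206-3p. With the smooth muscle markers miR-143-3p and miR-145-5p it had 0.0671 and -0.585, and with the neuronal miR-182 and miR-96-5p 0.284 and 0.333. miR-142-5p had -0.0175 with miR-126a-3p, -0.218 with miR-204-5p and -0.0341 with miR-206-3p. With miR-143-3p and miR-145-5p it had 0.513 and 0.0712, and with miR-182 and miR-96-5p -0.350 and -0.389. With the number of miRNA counts in a library the rho was -0.397 for miR-451-5p and -0.267 for miR-142-5p, and with the percentage of reads of low alignment quality it was 0.0444 and -0.253.

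The 2 arms of a hairpin come from 1 precursor, so their ratio was read apart from their levels. Whether the ratio depends on how much precursor a ganglion held was not tested. Over all libraries the 3p arm had 85.4% of the counts of both arms for miR-223 (exact binomial 95% interval 84.8 to 85.9%), 54.3% for miR-144 (52.1 to 56.5%), 18.6% for miR-142 (18.0 to 19.3%), 1.52% for miR-150 (1.44 to 1.60%) and 1.13% for miR-155 (0.846 to 1.47%). The 5p arm therefore led in miR-142, miR-150 and miR-155, the 3p arm led in miR-223, and the pooled counts of miR-144 were nearly equal. The binomial intervals are for the pooled counts and cover counting error only, not the spread between rats. In single libraries the ratio of 5p to 3p counts of miR-144 ran from 0.518 (a bPYX+GFP rat) to 2.43 (a naive rat). For miR-142 it ran from 3.13 (a bPYX+GFP rat) to 6.24 (a naive rat). It was 47.7 (a naive rat) to 103 (a bPYX+GFP rat) for miR-150 and 0.102 (a bPYX+NT3 rat) to 0.271 (a naive rat) for miR-223. Only miR-142, miR-150 and miR-223 had at least 10 counts of both arms in every library, and their log2 ratios of 5p to 3p counts were compared between groups.

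None of these 9 comparisons passed after Benjamini-Hochberg adjustment (two-sided exact permutation tests over all splits of the 12 rats). For miR-150 the mean log2 ratio was 5.83 in naive rats, 6.22 after injury with GFP and 6.16 with NT3, higher by 0.40 and 0.33 than in naive rats (exact p = 0.0584 and 0.0606, adjusted p = 0.201 for both). For miR-142 it was 2.30 in naive and 2.06 in bPYX+GFP rats, a difference of -0.24 (exact p = 0.0671, adjusted p = 0.201), and for miR-223 it was -2.32 in naive and -2.72 in bPYX+NT3 rats, a difference of -0.40 (exact p = 0.0952, adjusted p = 0.214). The remaining 5 comparisons had exact p between 0.139 and 0.855.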

How the data were processed

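Small RNA of pooled C6 to C8 ganglia was sequenced from 18 rats, 1 library per rat. The authors trimmed adapters, aligned reads to Rnor_5.0 with Bowtie2 and deposited raw read counts per mature miRNA from HTSeq, without normalization. Versions are not given in the sources used here. The deposited table listed 753 miRNAs, 572 with a count. Its 5 rows of unassigned reads (low alignment quality 31.4%, not aligned 27.2%, outside miRNAs 3.20%, ambiguous 3.26% of reads) stayed out of library sizes and tests. The rule of low alignment quality drops reads that fit several places, so miRNAs with copies can be undercounted. No molecular identifiers were stated, so intervals from counts cover counting error only.

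Groups came from the labels. The study left out 1 naive library as an outlier; all 18 libraries were kept here. Each comparison was fitted on its 12 libraries with edgeR 4.0.16 in R 4.3.3 (TMM scaling, quasi-likelihood F test, Benjamini-Hochberg adjustment over 373 miRNAs with more than 10 counts in at least 6 libraries). SEs come from the F statistic. Ranks, SDs and correlations used log2(CPM + 0.5) after TMM scaling, with 100000 permutations (scipy 1.17.1). Hairpins were folded with RNAfold (ViennaRNA 2.7.2). Sequences, loci and gene overlaps came from RefSeq tables of GRCr8.

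The members and lists were chosen with earlier results of these data known. All entries matching the name rule are named, with the 5 miRNAs of highest rho for miR-451-5p and miR-150-5p. Between libraries of a group, the chi-square over its degrees of freedom was 37.3 or more, so all were counted as separate samples. The script was tested on simulated data. Alternatives were median-of-ratios size factors, library size only, no filter, a filter above 100 counts, the likelihood ratio test, DESeq2 1.42.0, 1 fit of all groups, a replicate block and leaving out each library.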

Additional observations from a re-analysis of the deposited data

Results flagged for a closer look

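In some groups 1 rat stood apart from the rest by Dixon's criterion, which compares the gap to the nearest rat with the group's whole range. Chance gives such a rat in about 1 in 20 groups. Among the members' levels it was so in 7 of 30 groups, or 23.3%, beside 6.88% over all tested miRNAs (77 of 1119 groups), and members that vary together are not separate cases.

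bPYX+GFP replicate 4 stood apart for the lymphocyte miRNA miR-150-5p with 1941 CPM (next rat 1202), for miR-150-3p with 34.3 CPM (next 15.0), for the leukocyte miRNA miR-142-5p with 271 CPM (next 154) and for the sum of the leukocyte members with 2593 CPM (next 1646). bPYX+NT3 replicate 2 stood apart for both arms of the red cell miRNA miR-144, with 29.8 CPM of miR-144-3p (next 14.0) and 31.3 CPM of miR-144-5p (next 11.5), and for the sum of the red cell members with 1098 CPM (next 572). bPYX+NT3 replicate 3 stood apart for the myeloid miR-223-3p with 282 CPM (next 157) and for miR-155-5p with 126 CPM (next 55.1). The ratio of 5p to 3p counts of miR-150 was 86.0 in naive replicate 6, above the others of its group (next 57.2), and 57.1 in bPYX+NT3 replicate 4, below them (next 71.2). What these rats share was not tested.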

How the results depend on the processing

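No member had an adjusted p under 0.05 in any comparison under any alternative run, where the smallest adjusted p was 0.237 by edgeR. At an unadjusted p under 0.05 the 10 members gave 0 calls in each comparison under the alternative scalings, filters, tests and the fit of all groups, and 0 to 1 when 1 library was left out. Over all tested miRNAs (251 to 567), the settings with all libraries gave 61 to 84 calls in bPYX+GFP against naive. Between the injured groups they gave 26 to 54 calls, and in bPYX+NT3 against naive 42 to 75. miR-144-3p passed in bPYX+GFP against naive without naive replicate 4 (log2 fold change 0.90, adjusted p = 0.240, edgeR), and miR-150-3p passed in bPYX+NT3 against naive without naive replicate 6 (-0.61, adjusted p = 0.328, edgeR). Of all 373 tested miRNAs, 76 passed unadjusted in the former fit and 46 in the latter. The filter above 100 counts tested 7 of the 10, so miR-144-3p, miR-144-5p and miR-150-3p have no value under it.

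Replicate numbers were not treated as pairs in the main fits. Correlations of the deviations of same-numbered rats ran from -0.38 to 0.37. A rat was nearest to its own number in 2 of 6 cases in each comparison, and whether this exceeds chance was not tested. With the number as a block, 1 member passed unadjusted in bPYX+GFP against naive (miR-144-3p, 0.75, adjusted p = 0.237, edgeR) and 1 in bPYX+NT3 against naive (miR-144-5p, 0.53, adjusted p = 0.359, edgeR). Of all 373 tested miRNAs, 76 and 48 passed unadjusted with the block in the same order. The block changed the sign of 3 small values, to -0.0194 for miR-451-5p between the injured groups, and to 0.0184 for miR-150-5p and 0.0370 for miR-142-5p in bPYX+NT3 against naive.

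The sign of 18 of the 30 member fold changes turned under at least 1 alternative, and each of these was at most 0.27 in size. In bPYX+GFP against naive, leaving out 1 library gave log2 fold changes of miR-223-3p -0.0218 to 0.16, miR-142-5p -0.23 to 0.32, miR-155-5p -0.27 to 0.0701 and miR-150-3p -0.52 to 0.14. In bPYX+NT3 against bPYX+GFP, leaving out 1 library gave log2 fold changes of miR-451-5p -0.35 to 0.24, miR-223-3p -0.12 to 0.23, miR-142-5p -0.28 to 0.11, miR-155-5p -0.22 to 0.40, miR-142-3p -0.34 to 0.0807, miR-223-5p -0.14 to 0.0539, miR-150-3p -0.42 to 0.056, miR-144-3p -0.58 to 0.00623 and miR-144-5p -0.24 to 0.35. In bPYX+NT3 against naive, leaving out 1 library gave log2 fold changes of miR-150-5p -0.18 to 0.17, miR-223-3p -0.0443 to 0.28, miR-142-5p -0.26 to 0.18, miR-155-5p -0.25 to 0.24 and miR-142-3p -0.0593 to 0.41. The differences in log2 arm ratio ran over the same omissions from -0.29 to -0.16 for miR-142, from 0.30 to 0.52 for miR-150, from -0.38 to -0.18 for miR-223 in bPYX+GFP against naive, from -0.0523 to 0.12 for miR-142, from -0.15 to 0.0257 for miR-150 in bPYX+NT3 against bPYX+GFP and from 0.28 to 0.45 for miR-150, from -0.52 to -0.29 for miR-223 in bPYX+NT3 against naive. The unadjusted exact p of the miR-150 ratio in bPYX+GFP against naive was 0.0455 with 1 added to both counts. Without naive replicate 6 it was 0.0130, and in bPYX+NT3 against naive 0.00649. Of 12 omissions in bPYX+GFP against naive, the unadjusted exact p fell under 0.05 in 3 for miR-150, 2 for miR-142 and 1 for miR-223. In bPYX+NT3 against naive it did so in 2 of 12 for miR-150 and 1 for miR-223.

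Over all miRNAs, the unadjusted count in bPYX+NT3 against bPYX+GFP rose from 32 to 54 without the filter and without bPYX+NT3 replicate 4, and that in bPYX+NT3 against naive fell from 51 to 32 without bPYX+NT3 replicate 3. Scaling by library size only changed the split of the latter from 27 higher and 24 lower to 41 and 13. The adjusted count of 9 in bPYX+GFP against naive was 23 by DESeq2 and 3 to 20 with 1 library left out. The causes were not tested. Depth limits the arms of miR-144 and miR-150-3p most, with as few as 7 counts in a library.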
